A study of Mus musculus with 24 samples.

Results

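Collagens, laminins and matrix proteoglycans build the extracellular matrix, and their messages were followed here in cultured astrocytes and microglia of wild-type (WT) and SOD1G93A mice. Members were chosen by name: every numbered collagen chain gene, every numbered laminin alpha, beta and gamma chain gene, and the genes Fn1, Tnc, Tnr, Vcan, Ncan, Bcan, Acan, Nid1, Nid2, Hspg2, Dcn, Bgn, Lum, Fbn1 and Hapln1. Of the 24411 genes listed in the deposited tables, 70 carried such a name, and 48 of these had a mean of at least 10 normalized counts in at least 1 of the 6 tables, as did 13176 of all genes. The 48 were 25 of 44 collagen genes, 9 of 11 laminin genes and 14 of the 15 others. A gene that passes this limit through the group where it is high had to differ between groups, so the counts of called members below are descriptions and support nothing by themselves. The 22 members that never passed were Col3a1, whose 24 reads in 1 library were the most that any of them had, Col6a6, with 0 reads in all 21 libraries, and Acan, Col10a1, Col13a1, Col17a1, Col19a1, Col20a1, Col22a1, Col24a1, Col25a1, Col28a1, Col2a1, Col4a3, Col6a3, Col6a4, Col6a5, Col7a1, Col8a2, Col9a1, Lama3 and Lamb3.

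The series holds 24 RNA sequencing samples in groups of 3, and 21 of them, in 7 groups, had columns in the tables; the 3 libraries of quiescent SOD1G93A microglia had none and are not analysed here. The comparisons ask how each cell type's transcripts change on inflammatory activation and whether the ALS-linked SOD1G93A genotype alters the cells at rest or once activated. SOD1G93A mice carry a human SOD1 transgene with a mutation found in familial ALS, bred into C57BL/6J, so all their cells carry it; the labels call the comparison mice WT and give no strain for each culture. Depth ran from 2016139 to 11570122 reads counted on genes per library, with a median of 5098168.

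Quiescent astrocytes of either genotype were grown in serum-free medium with HBEGF and a PBS control addition. Activated astrocytes of either genotype received C1q at 400 ng/mL, IL-1α at 3 ng/mL and, as the remaining agent, TNFα at 30 ng/mL, in the same medium. All astrocytes were immunopanned from the forebrain cortex of pups in their first postnatal week, after panning steps that remove microglia, endothelial cells and cells of the oligodendrocyte lineage, with HepaCAM as the positive step. Quiescent WT microglia and the LPS-activated microglia of both genotypes (lipopolysaccharide, 50 ng/mL) were isolated by magnetic beads against CD11b from whole brains of pups around the start of the second postnatal week, and grown without serum with TGF-β2, IL-34, cholesterol and heparan sulfate. Cells of early postnatal pups in culture are the limit of the model, since the mice develop motor neuron disease only as adults. The labels do not say whether replicates are separate cultures or animals, so each p measures the spread between these samples.

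As background, collagen IV and laminin form separate networks that nidogens and perlecan tie together into the basement membrane, the sheet on which astrocyte endfeet rest at blood vessels and at the brain surface. Between cells, the brain matrix holds little fibrillar collagen; it is built on hyaluronan bound by the lecticans neurocan, brevican, versican and aggrecan, which tenascins and the link protein Hapln1 hold together. Astrocytes are a main source of these components, and matrix rich in chondroitin sulfate proteoglycans and collagen is a known feature of glial scars.

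Levels are given as rpm (reads on a gene, scaled per library to all its reads counted on genes), for each of 3 libraries or as mean ± SD, and per kilobase of exon only where genes are compared with each other. All 70 members together took 5249, 5590.4 and 6694 rpm in the quiescent WT astrocyte libraries and 853, 768 and 838 rpm in the quiescent WT microglia libraries. The astrocyte libraries all lie above the microglia libraries in this sum. Per kilobase, Ncan was the highest member in quiescent WT astrocytes at 321 ± 28.2 rpm per kilobase, followed by Bcan at 180.1 ± 10.4. Tnc, tenascin C, came next at 124 ± 44.1 rpm per kilobase, with replicate 3 far above the other libraries. Below these lay the laminin chains Lamc1 at 38.4 ± 8.16, Lamb2 at 23.8 ± 4.36 and Lama5 at 19.8 ± 0.502 rpm per kilobase, of which Lamb2 and Lama5 differ by less than the SD of Lamb2. Fn1, Col4a1, Nid2 and Col11a1 stood close together, at 12.1 ± 3.72, 10.5 ± 1.26, 10.5 ± 0.883 and 10.3 ± 1.01 rpm per kilobase, each gap within the SD of Fn1. The leading members of the remaining groups were Col9a3 among fibril-associated collagens at 4.34 ± 0.637, with Col16a1 at 3.96 ± 0.239 within its SD, Col6a1 in collagen VI at 2.07 ± 0.751, Col26a1 among short-chain and transmembrane collagens at 1.78 ± 0.0570 and Bgn among small leucine-rich proteoglycans at 1.35 ± 0.403 rpm per kilobase. In quiescent WT microglia the order was different: Fn1 led at 35.5 ± 1.98, then Lamc1 at 14.8 ± 1.04 and Tnc at 6.5 ± 0.734 rpm per kilobase, with Lamb2 at 6.38 ± 1.16, within the spread of Tnc.

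The cultures were checked against markers of 6 cell types, 12 genes each, none of them a member. Astrocyte markers summed to 5125, 5524 and 6353 rpm in quiescent WT astrocytes, with Slc1a3 the most abundant, and to 169.6, 156 and 168 rpm in quiescent WT microglia. Microglia markers summed to 10957, 11456 and 10789 rpm in quiescent WT microglia, led by Csf1r, and to 344, 406 and 479 rpm in quiescent WT astrocytes, led by Sall1. Each label is thus matched by its own marker list. In the same astrocyte libraries, pericyte and fibroblast markers summed to 73.9, 80.0 and 79.9 rpm, mostly Notch3, with Kcnj8, Foxd1 and Slc6a13 at 0 reads in all 3. Endothelial markers summed to 13.4, 13.2 and 16.6 rpm, with Flt1 the most abundant and Cldn5, Tek, Emcn, Esam and Ly6c1 at 0. Oligodendrocyte lineage markers were high, at 3197, 3118 and 3024 rpm, led by Olig1 at 1799 rpm on average, with Mog at 0. Neuronal markers summed to 54.1, 56.9 and 55.0 rpm, led by Dcx.

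On activation, transcripts of some basement membrane genes, both collagen VI genes tested, lumican, decorin, versican and tenascin C rose in WT astrocytes, and those of neurocan, brevican and tenascin R fell. A gene was called when its adjusted p was under 0.001 and it differed more than 2-fold; by limma over all genes, 20 of 44 members tested were called, against 11.5% of 12336 genes. Of these, 15 were higher in activated cells, against 6.0% of all genes, and 5 were lower, against 5.54%. The median log2 fold change, activated over quiescent, was 0.53 for the members and 0.01 for all genes tested. The summed level of all members was 5249, 5590.4 and 6694 rpm at rest and 8861, 8299.5 and 9211 rpm after activation, so the groups do not overlap. In bulk RNA, fewer cells of a type and less RNA per cell cannot be told apart.

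Among basement membrane collagens, 3 of 6 tested members rose and 0 fell, with a median log2 fold change of 1.71. Col4a5, a chain of the collagen IV network, measured 55.1, 59.9 and 70.5 rpm in the quiescent libraries and 199.9, 199 and 212 rpm in the activated ones, a log2 fold change of 1.75 ± 0.11 (adjusted p = 5.51e-07). Col4a6, its partner chain, measured 25.3, 26.1 and 56.6 rpm at rest and 156, 141 and 140.2 rpm after activation, a log2 fold change of 2.14 ± 0.26 (adjusted p = 6.24e-05). Each activated library lies above each quiescent one for both, although quiescent replicate 3, the deepest of its group, holds more Col4a6 than the other quiescent libraries. Col18a1, the core of a heparan sulfate proteoglycan of basement membranes, measured 32.7, 30.8 and 60.3 rpm at rest and 124, 116 and 133 rpm after activation, a log2 fold change of 1.68 ± 0.22 (adjusted p = 1.18e-04). Here too replicate 3 is the highest quiescent library, and the call is lost without WT quiescent replicate 2 (adjusted p = 0.00126), WT activated replicate 1 (0.00117) or WT activated replicate 3 (0.00159). Col4a1, which with Col4a2 makes the most widespread collagen IV trimer, measured 77.4, 69.8 and 88.6 rpm at rest and 128, 127 and 138 rpm after activation, with no overlap, but at 0.76 ± 0.11 its log2 fold change was under the 2-fold limit (adjusted p = 2.36e-04); Col4a2 was at 0.82. Col15a1, the other multiplexin, measured 1.49, 0.550 and 0.864 rpm at rest and 4.16, 4.88 and 5.57 rpm after activation, and its adjusted p of 0.00115 missed the limit; it is called without WT quiescent replicate 1 (1.58e-04) or 3 (8.47e-04), with pseudocount 5 (6.15e-04), by DESeq2 (1.51e-04) and by edgeR (2.33e-04).

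The linkers of the basement membrane rose with these collagens, 2 of 3, while 1 of 8 laminins did. Nid1, nidogen, which bridges laminin and collagen IV, measured 23.8, 23.4 and 32.6 rpm in the quiescent libraries and 145, 137 and 146 rpm in the activated ones, a log2 fold change of 2.45 ± 0.14 (adjusted p = 2.25e-07). Hspg2, perlecan, measured 72.9, 72.6 and 83.5 rpm at rest and 351, 295 and 383 rpm after activation, a log2 fold change of 2.18 ± 0.12 (adjusted p = 1.77e-07). For both, the lowest activated library lies well above the highest quiescent one. Nid2, the other nidogen, measured 50.1, 53.9 and 59.2 rpm at rest and 56.5, 54.8 and 63.0 rpm after activation, and the groups overlap (log2 fold change 0.12 ± 0.11). Lama4, a laminin alpha chain of vascular basement membranes, measured 3.97, 4.40 and 6.48 rpm at rest and 25.8, 25.0 and 29.0 rpm after activation, a log2 fold change of 2.43 ± 0.21 (adjusted p = 5.01e-06). It was low at rest and the only laminin called; the median of the 8 tested was 0.19. Lamc1, the gamma chain shared by most laminins and the highest laminin per kilobase, measured 265, 294 and 394 rpm at rest and 309.8, 337 and 433 rpm after activation, and the groups overlap (log2 fold change 0.21 ± 0.17). Lama5, an alpha chain, measured 232, 224 and 221 rpm at rest and 318, 283 and 301 rpm after activation; the groups do not overlap, but both its log2 fold change of 0.44 ± 0.08 and its adjusted p of 0.00151 miss the limits. Of the other laminins tested, Lama1, Lama2, Lamb1 and Lamb2 were at -0.59, -0.74, 0.17 and 0.12 on the log2 scale; with no filter Lamc3, under the limit on low counts, is called as higher (3.41, adjusted p = 1.01e-04).

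Collagen VI, which forms beaded filaments around cells, had 2 members with enough reads, and both rose. Col6a1 measured 5.46, 9.90 and 11.9 rpm in the quiescent libraries and 69.5, 61.3 and 67.3 rpm in the activated ones, a log2 fold change of 2.93 ± 0.24 (adjusted p = 3.57e-06). Col6a2 measured 0.992, 1.10 and 2.05 rpm at rest and 13.1, 10.3 and 10.3 rpm after activation, a log2 fold change of 2.92 ± 0.32 (adjusted p = 2.84e-05). All activated libraries lie above all quiescent ones for either chain; Col6a3, the chain that completes the usual trimer, did not pass the limit on low counts in any table. Of 7 fibrillar collagens tested, 2 rose and 1 fell, with a median log2 fold change of -0.08. Col5a1, of the collagen V that starts fibrils, measured 35.7, 35.5 and 55.2 rpm at rest and 199, 175 and 193 rpm after activation, a log2 fold change of 2.21 ± 0.17 (adjusted p = 1.63e-06). Col5a3, another collagen V chain, measured 23.8, 25.8 and 29.4 rpm at rest and 84.0, 70.5 and 68.2 rpm after activation, a log2 fold change of 1.51 ± 0.13 (adjusted p = 3.81e-06). Both were higher in every activated library, whereas Col5a2, the third chain, overlapped between the groups (log2 fold change -0.05 ± 0.15). Col11a1, a fibrillar chain related to collagen V, measured 119.5, 131 and 145 rpm at rest and 61.4, 57.9 and 70.8 rpm after activation, a log2 fold change of -1.03 ± 0.12 (adjusted p = 3.98e-05). Every activated library is lower, but the fold is just past the limit and falls short of it without WT quiescent replicate 3 (-0.94) or WT activated replicate 2 (-0.96). Col11a2, Col1a2 and Col27a1 were not called, at -1.33, -0.61 and -0.08.

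Among the remaining collagens, Col23a1, a transmembrane collagen, had the largest response of any collagen. It measured 4.96, 3.30 and 4.43 rpm at rest and 188, 169 and 141 rpm after activation, a log2 fold change of 5.26 ± 0.17 (adjusted p = 3.62e-09). It was low in quiescent cells, with 10, 12 and 41 reads, and among the 8 highest members per kilobase in activated ones. Col26a1 and Col8a1, grouped with it, were not called, at -0.45 and 0.69. Col9a3, of the fibril-associated collagen IX, measured 18.8, 17.3 and 14.0 rpm at rest and 3.57, 2.81 and 4.87 rpm after activation, a log2 fold change of -2.10 ± 0.24 (adjusted p = 3.78e-05). Its partner Col9a2 measured 5.46, 4.40 and 3.89 rpm at rest and 1.19, 1.03 and 0.348 rpm after activation; the groups do not overlap, and its adjusted p of 0.00194 misses the limit, though it is called with pseudocount 5 (8.62e-04), by DESeq2 (2.74e-04) and by edgeR (7.37e-04). Both collagen IX chains were thus lower in every activated library. Col12a1 and Col16a1, also fibril-associated, were at 0.70 and -0.14 and were not called.

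Of the 6 tested lecticans and partners, 2 rose and 3 fell. Tnc, tenascin C, an anti-adhesive glycoprotein, measured 726, 814 and 1359 rpm at rest and 4294, 3884 and 4415 rpm after activation, a log2 fold change of 2.20 ± 0.21 (adjusted p = 1.03e-05). Vcan, versican, measured 58.5, 54.7 and 59.8 rpm at rest and 232, 199.6 and 222 rpm after activation, a log2 fold change of 1.94 ± 0.10 (adjusted p = 8.45e-08). All activated libraries exceed all quiescent ones for both, and the gain in Tnc is larger than the gain in the summed level of all members. Ncan, neurocan, measured 2125, 2280.0 and 2527 rpm at rest and 914, 966 and 1075 rpm after activation, a log2 fold change of -1.21 ± 0.12 (adjusted p = 1.24e-05). Bcan, brevican, measured 759, 753 and 683 rpm at rest and 251, 274 and 254 rpm after activation, a log2 fold change of -1.47 ± 0.08 (adjusted p = 1.97e-07). Tnr, tenascin R, which cross-links lecticans in nets around neurons, measured 40.2, 31.1 and 42.0 rpm at rest and 14.3, 12.7 and 11.8 rpm after activation, a log2 fold change of -1.50 ± 0.15 (adjusted p = 1.74e-05). These were lower in every activated library; the link protein Hapln1, at -1.55 with few reads, was not called (adjusted p = 0.00534).

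Other cells also make brevican, neurocan, tenascin R and versican, among them those of the oligodendrocyte lineage, and markers of other cell types moved in the same comparison. Oligodendrocyte lineage markers summed to 3197, 3118 and 3024 rpm at rest and 1163, 1198 and 1134 rpm after activation, led by Olig1, and 4 of 10 tested fell: Olig1, Olig2, Gpr17 and Cnp. Neuronal markers summed to 54.1, 56.9 and 55.0 rpm and 121, 120.4 and 108 rpm, led by Dcx, and 4 of 9 rose. Endothelial markers summed to 13.4, 13.2 and 16.6 rpm and 139.9, 151 and 157 rpm, and 1 tested, Flt1, rose; it makes up nearly all of the sum, with Cldn5, Cdh5 and Ly6c1 at 0 in all activated libraries. Pericyte and fibroblast markers, of which limma, DESeq2 and edgeR each called 0 of 3 (0 at an unadjusted p under 0.05 by limma), summed to 73.9, 80.0 and 79.9 rpm and 77.7, 79.2 and 84.4 rpm, led by Notch3. Microglia markers summed to 344, 406 and 479 rpm and 372, 483 and 349.9 rpm, with 0 of 11 called by limma, DESeq2 or edgeR (0 at an unadjusted p under 0.05 by limma), and astrocyte markers to 5125, 5524 and 6353 rpm and 4581, 4601 and 4598 rpm, with 3 of 11 lower. The part of any of these cells in the matrix results was not tested.

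The small leucine-rich proteoglycans, which bind collagen fibrils, went from near absence to clear detection for 2 of 3. Lum, lumican, measured 0.992, 0 and 0.324 rpm at rest and 25.6, 20.8 and 18.1 rpm after activation, a log2 fold change of 5.42 ± 0.53 (adjusted p = 1.20e-05). Dcn, decorin, measured 0.496, 0.825 and 0.324 rpm at rest and 14.7, 13.6 and 9.57 rpm after activation, a log2 fold change of 4.14 ± 0.36 (adjusted p = 4.26e-06). Quiescent libraries held 5 reads of Lum and 7 of Dcn in all, so the size of either fold is imprecise while the groups do not overlap. Bgn, biglycan, measured 6.45, 7.15 and 11.0 rpm at rest and 4.36, 5.61 and 3.13 rpm after activation and was not called (log2 fold change -0.85 ± 0.29, adjusted p = 0.0398). Of the fibre glycoproteins, Fn1, fibronectin, measured 106, 128 and 189.7 rpm at rest and 215, 211 and 198 rpm after activation and was not called (log2 fold change 0.63 ± 0.18); Fbn1, fibrillin, was at 0.37.

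**Figure D1:**
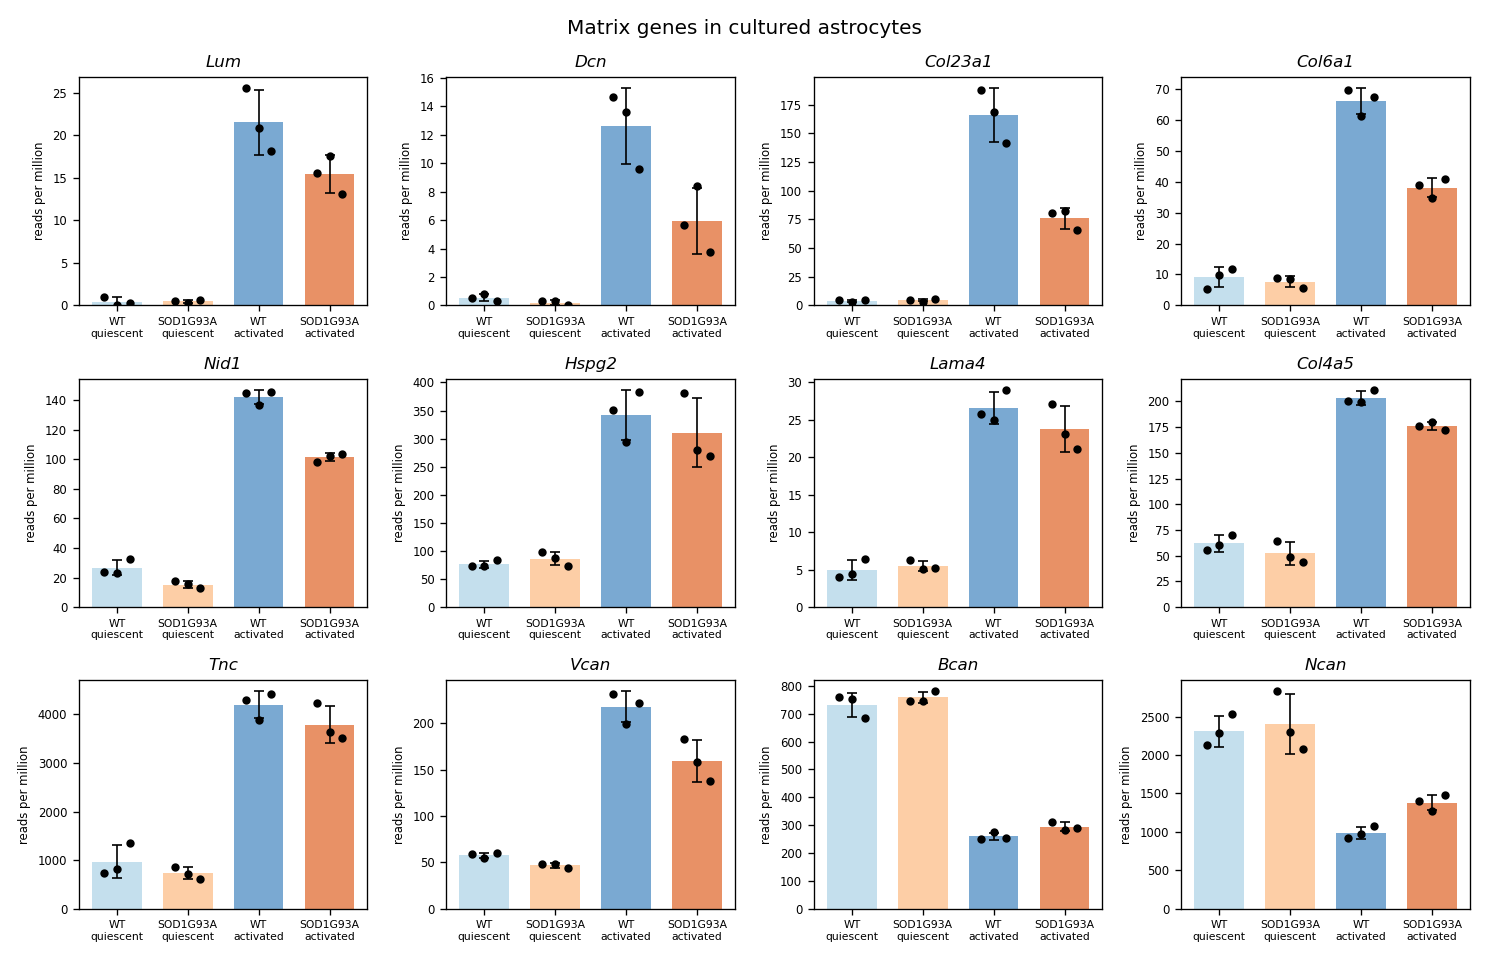
Levels in rpm of 12 matrix genes in the 4 astrocyte groups; bars are means, error bars SD and points the 3 libraries of each group. Tnc stands at 966 ± 343 rpm in quiescent and 4197 ± 278 rpm in activated WT astrocytes, and Bcan at 732 ± 42.1 and 259.7 ± 12.6 rpm.

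SOD1G93A astrocytes were compared between states in a joint fit over the 12 astrocyte libraries. By limma, 21 of 42 members tested were called, against 13.3% of 12269 genes: 17 higher in activated cells, against 6.74%, and 4 lower, against 6.59%. The median log2 fold change was 0.53 for members and -0.00 for all genes tested. The contrast is between SOD1G93A libraries alone, while both genotypes set the scaling and the spread.

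In SOD1G93A astrocytes the basement membrane genes Col4a5, Col4a6, Col18a1, Nid1, Hspg2 and Lama4 had adjusted p between 5.74e-11 and 2.21e-07 by limma. Col4a5 measured 64.2, 48.7 and 43.4 rpm at rest and 176, 179.7 and 172 rpm when activated, a log2 fold change of 1.85 ± 0.13. Col4a6 measured 21.7, 17.1 and 14.3 rpm at rest and 81.7, 91.9 and 88.5 rpm when activated, a log2 fold change of 2.39 ± 0.24. Col18a1 measured 41.3, 30.2 and 29.5 rpm at rest and 141, 129 and 138 rpm when activated, a log2 fold change of 2.11 ± 0.20. Each of these collagens is higher in all activated libraries. Nid1 measured 17.4, 15.3 and 13.1 rpm at rest and 98.3, 103 and 103 rpm when activated, a log2 fold change of 2.81 ± 0.14. Hspg2 measured 97.7, 87.3 and 73.5 rpm at rest and 381, 280.2 and 269 rpm when activated, a log2 fold change of 1.92 ± 0.14. Lama4 measured 6.30, 5.10 and 5.16 rpm at rest and 27.1, 23.2 and 21.1 rpm when activated, a log2 fold change of 2.14 ± 0.20. None of the groups overlaps, and Col4a1, called here at 1.07 ± 0.13 (adjusted p = 4.08e-06) with 100.2, 74.1 and 68.3 rpm at rest and 156, 154 and 163 rpm when activated, sits next to the 2-fold limit. It falls under that limit without SOD1G93A quiescent replicate 3 (0.94) or with scaling by total reads (0.98), an alternative chosen after seeing the data. Lama2, a laminin alpha chain, fell just past 2-fold (-1.03 ± 0.18, adjusted p = 1.68e-04), from 23.8, 24.7 and 18.8 rpm to 9.40, 11.96 and 9.37 rpm. It is under 2-fold without SOD1G93A quiescent replicate 1 (-0.96) or 2 (-0.97), without SOD1G93A activated replicate 1 (-0.97) or 3 (-0.98), and with pseudocount 5 (-0.98). With no filter Lamc3 is called as higher (2.96, adjusted p = 1.09e-04).

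Of the other collagens, those that rose or fell in WT astrocytes had these levels in SOD1G93A astrocytes. Col6a1 measured 8.82, 8.55 and 5.77 rpm at rest and 39.0, 34.6 and 40.7 rpm when activated, a log2 fold change of 2.38 ± 0.23. Col6a2 measured 0.105, 0.276 and 0 rpm at rest and 3.76, 2.04 and 4.68 rpm when activated, 3 against 32 reads, a ratio of 21.9 with a 95% counting interval of 6.84 to 112. Col5a1 measured 54.6, 43.0 and 41.6 rpm at rest and 219.8, 213 and 214 rpm when activated, a log2 fold change of 2.31 ± 0.15. The activated libraries are the higher ones for all of these. Col5a3 measured 25.7, 26.1 and 21.3 rpm at rest and 88.9, 81.2 and 86.6 rpm when activated, a log2 fold change of 1.89 ± 0.12. Col23a1 measured 4.72, 3.31 and 5.47 rpm at rest and 80.9, 81.9 and 65.6 rpm when activated, a log2 fold change of 4.12 ± 0.18. Col9a3 measured 16.7, 18.5 and 18.5 rpm at rest and 4.03, 4.33 and 6.09 rpm when activated, a log2 fold change of -1.79 ± 0.23. Col9a3 is the one that is lower when activated, and it was called (adjusted p = 4.50e-06), as were Col6a1, Col6a2, Col5a1, Col5a3 and Col23a1 (adjusted p 1.59e-11 to 4.29e-06). Col11a1 measured 134, 110.1 and 106 rpm at rest and 61.3, 58.3 and 65.1 rpm when activated and was not called (-0.83 ± 0.12, under 2-fold). Col12a1, a fibril-associated collagen, rose from 18.9, 14.9 and 15.8 rpm to 35.5, 31.6 and 35.1 rpm (1.12 ± 0.17, adjusted p = 4.87e-05). Col9a2, with 30, 28 and 18 reads at rest and 0, 5 and 2 when activated, was at -2.50 (limma adjusted p = 0.00278). Col4a4, with 54, 24 and 13 reads at rest and 5, 3 and 1 when activated, was at -2.05 (0.00275). Neither was called in the fit reported, and both are called as lower with pseudocount 5 (6.7e-04 and 8.11e-04).

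The lecticans, tenascins and small proteoglycans follow in the same order. Tnc measured 856, 719 and 617 rpm at rest and 4225, 3630.2 and 3513 rpm when activated, a log2 fold change of 2.47 ± 0.19. Vcan measured 48.2, 48.1 and 44.0 rpm at rest and 183, 159 and 138 rpm when activated, a log2 fold change of 1.84 ± 0.10. Ncan measured 2829, 2302 and 2076 rpm at rest and 1397, 1274 and 1473 rpm when activated, a log2 fold change of -0.71 ± 0.13. Tnc and Vcan rose, and Ncan, lower in every activated library, was under the 2-fold limit. Bcan measured 747, 747 and 781 rpm at rest and 312, 283 and 289 rpm when activated, a log2 fold change of -1.28 ± 0.08. Tnr measured 23.9, 16.7 and 21.6 rpm at rest and 8.60, 7.89 and 7.96 rpm when activated, a log2 fold change of -1.23 ± 0.17. Both fell, without overlap of the groups. Lum measured 0.525, 0.276 and 0.607 rpm at rest and 15.6, 17.6 and 13.1 rpm when activated, a log2 fold change of 4.60 ± 0.46. Dcn measured 0.315, 0.276 and 0 rpm at rest and 5.64, 8.40 and 3.75 rpm when activated, a log2 fold change of 3.97 ± 0.45. As in WT cells, 9 reads of Lum and 5 of Dcn stood for the whole quiescent group, and the activated libraries were all higher; Tnc, Vcan, Bcan, Tnr, Lum and Dcn had adjusted p 2.65e-10 to 1.14e-05. Oligodendrocyte lineage markers summed to 3602, 3354 and 3389 rpm at rest and 1139, 1106 and 1185 rpm when activated, with 3 of 10 lower, led by Olig1; neuronal markers summed to 38.4, 43.4 and 46.2 rpm and 81.1, 66.7 and 63.2 rpm, with 3 of 9 higher. Of the other markers, Flt1 (endothelial, 4.41 on the log2 scale), Pdgfrb (pericyte, 1.22) and Gfap (astrocyte, 1.94) rose and the astrocyte markers Aldoc, Fgfr3 and S100b fell (-1.26, -1.78 and -1.72). Their part in these values was not tested.

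Whether the activation response itself differs between genotypes was tested as an interaction over the 12 astrocyte libraries. By limma, 0 of 42 members were called, against 0% of 12269 genes; DESeq2 called 0 and edgeR 0 members, against 22 and 4 genes. At an unadjusted p under 0.05 there were 3 members by limma, against 8.30% of all genes, 2 by DESeq2 and 5 by edgeR. The 3 were Col23a1, with a difference in log2 response, SOD1G93A minus WT, of -1.14 ± 0.26 (95% interval -1.69 to -0.58, adjusted p = 0.0987), Ncan at 0.50 ± 0.19 (0.10 to 0.90, 0.458) and Col5a3 at 0.39 ± 0.18 (0.01 to 0.76, 0.580). By these estimates the response of Col23a1 is smaller and that of Ncan less negative in SOD1G93A cells, and neither passes the correction. The median difference was 0.10 for the members and 0.00 for all genes. A member called in 1 genotype only, such as Col11a1, Ncan, Col4a1, Col12a1 or Lama2, is therefore not shown to differ in response.

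**Figure D2:**
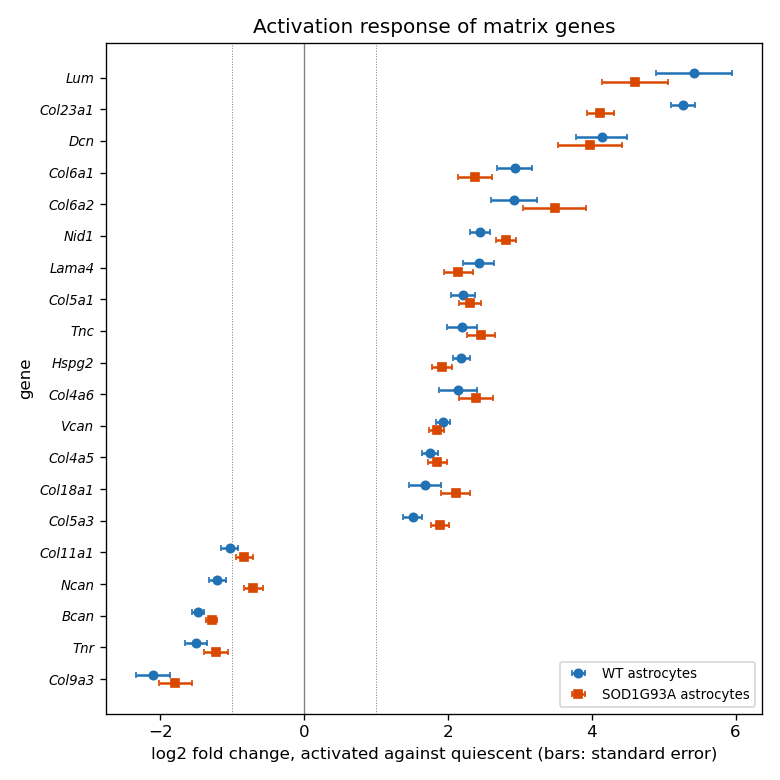
Log2 fold change on activation, with standard error, of the 20 members called in WT astrocytes, plotted for WT and for SOD1G93A astrocytes (3 libraries in each group); dotted lines mark 2-fold. Col23a1 stands at 5.26 in WT and 4.12 in SOD1G93A cells, and Bcan at -1.47 and -1.28.

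At rest, no member was called between SOD1G93A and WT astrocytes. By limma the count was 0 of 39 members, against 0% of 12271 genes; DESeq2 called 0 members and 7 genes, and edgeR 0 members and 0 genes. At an unadjusted p under 0.05 there were 8 members by limma, against 8.70% of all genes, 6 by DESeq2 and 8 by edgeR. The lowest p belonged to Tnr, with 40.2, 31.1 and 42.0 rpm in WT and 23.9, 16.7 and 21.6 rpm in SOD1G93A libraries (log2 fold change -0.89 ± 0.18, adjusted p = 0.190). Nid1 followed, with 23.8, 23.4 and 32.6 rpm in WT and 17.4, 15.3 and 13.1 rpm in SOD1G93A libraries (-0.81 ± 0.19, adjusted p = 0.257). Col4a6 measured 25.3, 26.1 and 56.6 rpm in WT and 21.7, 17.1 and 14.3 rpm in SOD1G93A libraries (-0.95 ± 0.30, adjusted p = 0.437). These 3 were picked for the lowest p, which favours groups that do not overlap. Their SOD1G93A libraries all lie below the WT libraries, and none of the 3 passes the correction. The median log2 fold change, SOD1G93A over WT, was -0.14 for members and 0.00 for all genes tested. Of 44 cell type markers tested, limma called 0 and edgeR 0, and DESeq2 called 1, Gpr17; at an unadjusted p under 0.05 there were 18 by limma, against 8.70% of all genes, 20 by DESeq2 and 18 by edgeR. Oligodendrocyte lineage markers summed to 3197, 3118 and 3024 rpm in WT and 3602, 3354 and 3389 rpm in SOD1G93A libraries, and astrocyte markers to 5125, 5524 and 6353 rpm and 5235, 4854 and 4277 rpm. Single markers of the lineage, named after their values were seen, lay apart in both directions: Olig1, the most abundant, was higher at 1853, 1818 and 1727 rpm in WT and 2262, 2058 and 2045 rpm in SOD1G93A libraries (limma adjusted p = 0.622), and Gpr17 was lower at 52.6, 43.4 and 52.6 rpm and 16.7, 14.3 and 14.3 rpm (0.00333), as was Sox10 at 29.8, 28.9 and 45.1 rpm and 18.3, 18.2 and 17.6 rpm (0.183). So did the astrocyte markers Slc1a2, higher at 446, 464 and 559 rpm and 644, 601 and 572 rpm (0.543), and Gfap, lower at 369.5, 352 and 699 rpm and 202, 223 and 178 rpm (0.183), and the part of any marker in the member values was not tested.

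Activated SOD1G93A astrocytes held less Col23a1 and less Col6a2 than activated WT astrocytes. By limma 2 of 40 members were called, both lower in SOD1G93A cells, against 0.645% of 12098 genes called and 0.124% called as lower; at an unadjusted p under 0.05 there were 25 members, against 20.4% of all genes. Col23a1 measured 188, 169 and 141 rpm in WT and 80.9, 81.9 and 65.6 rpm in SOD1G93A libraries, a log2 fold change of -1.08 ± 0.10 (adjusted p = 1.40e-07). Col6a2 measured 13.1, 10.3 and 10.3 rpm in WT and 3.76, 2.04 and 4.68 rpm in SOD1G93A libraries, a log2 fold change of -1.64 ± 0.28 (adjusted p = 5.68e-04). All SOD1G93A libraries lie below all WT libraries for both. Col23a1 falls short of 2-fold without WT activated replicate 1 (-0.99) or SOD1G93A activated replicate 3 (-0.98). Col6a2 loses its call without WT activated replicate 1, 2 or 3 (adjusted p = 0.0127, 0.00326 and 0.00469), without SOD1G93A activated replicate 1 or 2 (0.00121 and 0.00339), and with no filter on low counts (0.00360). The count of called members is thus 0 without WT activated replicate 1 and 1 without WT activated replicate 2 or 3 or SOD1G93A activated replicate 1, 2 or 3.

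Smaller differences passed the p limit without reaching 2-fold. Col4a6 measured 156, 141 and 140.2 rpm in WT and 81.7, 91.9 and 88.5 rpm in SOD1G93A activated libraries (-0.70 ± 0.07, adjusted p = 1.84e-06). Col6a1, the partner of Col6a2, measured 69.5, 61.3 and 67.3 rpm in WT and 39.0, 34.6 and 40.7 rpm in SOD1G93A libraries (-0.75 ± 0.10, adjusted p = 2.26e-05). Nid1 was at -0.45 ± 0.07, while Ncan and Lamc1 were higher in SOD1G93A cells, at 0.53 ± 0.07 and 0.58 ± 0.09 (adjusted p of these 3 3.73e-05 to 2.43e-04). Dcn was past 2-fold (-1.07 ± 0.26) with an adjusted p of 0.0129, and passes the limit of 0.001 only with replicate number as a block (adjusted p = 6.96e-04), where 3 members are called. Members had a median log2 fold change of -0.12 against -0.00 for all genes. Neuronal markers summed to 121, 120.4 and 108 rpm in WT and 81.1, 66.7 and 63.2 rpm in SOD1G93A activated libraries, with 1 of 9, Dcx, lower by limma. Pericyte and fibroblast markers summed to 77.7, 79.2 and 84.4 rpm and 80.9, 79.7 and 75.9 rpm, led by Notch3. Of 45 markers tested, 18 had an unadjusted p under 0.05, against 20.4% of all genes. Under 2-fold but past the p limit were Pdgfra at 82.8, 81.4 and 74.1 rpm in WT and 57.0, 52.4 and 46.8 rpm in SOD1G93A activated libraries, Sox10 at 26.7, 23.8 and 22.3 rpm and 14.2, 11.2 and 12.2 rpm, both of the oligodendrocyte lineage and lower, and the astrocyte marker Aqp4 at 88.4, 101 and 97.6 rpm and 124, 123 and 126 rpm, higher; the part of any marker in the matrix values was not tested. The activated WT libraries also serve in the comparison with quiescent WT cells, so the rise of members there and their lower level here share those libraries.

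In WT microglia, LPS lowered fibronectin, nidogen 2, laminin beta 2 and collagens XIV, XV and XXVII, and raised decorin and versican. By limma 8 of 27 members tested were called, against 20.8% of 10866 genes: 2 were higher with LPS, against 10.2%, and 6 lower, against 10.6%. The median log2 fold change, LPS over quiescent, was -0.06 for members and 0.00 for all genes; scaling by total reads, chosen after seeing the data, moves the median of all genes to -0.21. Fn1, fibronectin, measured 419, 390.1 and 436 rpm at rest and 97.8, 129 and 136 rpm with LPS, a log2 fold change of -1.58 ± 0.13 (adjusted p = 2.10e-06). Nid2 measured 23.2, 21.6 and 21.2 rpm at rest and 3.82, 3.33 and 3.42 rpm with LPS, a log2 fold change of -2.37 ± 0.15 (adjusted p = 3.74e-07). Lamb2 measured 37.9, 46.3 and 32.3 rpm at rest and 8.496, 8.24 and 7.06 rpm with LPS, a log2 fold change of -2.04 ± 0.16 (adjusted p = 1.89e-06). Each was several times lower in every LPS library, and Fn1 alone accounts for most of the fall in the summed level, from 853, 768 and 838 rpm to 427, 479 and 528 rpm.

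The collagens that fell were low in level. Col27a1, a fibrillar collagen, measured 19.99, 20.4 and 24.5 rpm at rest and 3.20, 4.32 and 2.57 rpm with LPS, a log2 fold change of -2.44 ± 0.22 (adjusted p = 4.20e-06). Col15a1 measured 17.6, 14.9 and 16.6 rpm at rest and 2.22, 2.75 and 1.498 rpm with LPS, a log2 fold change of -2.65 ± 0.24 (adjusted p = 4.80e-06). Col14a1, a fibril-associated collagen, measured 12.9, 9.80 and 13.1 rpm at rest and 1.11, 0.392 and 3.42 rpm with LPS, a log2 fold change of -2.93 ± 0.54 (adjusted p = 9.12e-04). No group overlaps, but the call of Col14a1 is lost with pseudocount 0.5 (adjusted p = 0.00120), without WT quiescent microglia replicate 1, 2 or 3 (0.00557, 0.00496 and 0.00388) and without LPS replicate 2 (0.00103). Vcan measured 3.25, 2.74 and 3.46 rpm at rest and 13.9, 24.1 and 22.0 rpm with LPS, a log2 fold change of 2.78 ± 0.23 (adjusted p = 2.90e-06). Dcn measured 0, 0 and 0.432 rpm at rest and 6.53, 7.65 and 8.56 rpm with LPS, 3 against 132 reads, a ratio of 48.3 with a 95% counting interval of 16.2 to 237 (adjusted p = 1.45e-05). Decorin went from almost no reads to detection in every LPS library. Lamc1, now the highest member per kilobase, measured 128, 113 and 126 rpm at rest and 132, 171 and 175 rpm with LPS (0.59 ± 0.12, adjusted p = 0.00198), and Col4a2 stood at 1.33 ± 0.34 (adjusted p = 0.00645); neither passed both limits. The other 17 members tested lie between -0.87 and 0.78 on the log2 scale. Only members with at least 10 normalized counts in every library leave 16 tested and 5 called. With no filter Lama3, under the limit on low counts, is called as lower with LPS (-3.12, adjusted p = 1.66e-04).

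Marker levels moved with LPS as well. Microglia markers summed to 10957, 11456 and 10789 rpm at rest and 3505, 3485 and 3541 rpm with LPS, and 9 of 12 fell. Oligodendrocyte lineage markers summed to 1350.2, 1375 and 1389.9 rpm and 144, 143 and 145 rpm, nearly all of it Cspg4 at rest, and 2 of 6 tested fell. Astrocyte markers summed to 169.6, 156 and 168 rpm and 200.1, 159 and 235 rpm, led by Gfap, and 2 of 9 tested rose. Pericyte and fibroblast markers summed to 56.0, 51.8 and 63.3 rpm and 48.5, 63.4 and 54.6 rpm, led by Anpep, with Kcnj8, Tbx18 and Tbx15 at 0 in both groups. Pdgfrb of this list measured 2.26, 0 and 1.15 rpm at rest and 5.66, 4.90 and 4.28 rpm with LPS, without overlap. It was not called by limma (log2 fold change 2.79, adjusted p = 0.00986). Endothelial markers summed to 85.1, 96.8 and 94.9 rpm and 52.8, 65.1 and 58.6 rpm, with Cldn5, Tek, Emcn and Ly6c1 at 0; of 4 tested, Pecam1 and Kdr rose (4.17 and 1.01 on the log2 scale) and Flt1 and Vwf fell (-3.47 and -1.17). Neuronal markers summed to 6.20, 5.10 and 4.32 rpm and 6.40, 5.88 and 8.13 rpm. Their part in the matrix values was not tested.

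Between LPS-activated microglia of the genotypes, no member was called by limma, and fibronectin stood apart. The count was 0 of 28 members, against 0% of 10679 genes, with 3 members at an unadjusted p under 0.05, against 8.71% of all genes; edgeR called 0 members and 0 genes, and DESeq2 1 member, Fn1, and 3 genes. Fn1 measured 97.8, 129 and 136 rpm in WT and 346, 354 and 607 rpm in SOD1G93A LPS libraries, a log2 fold change of 1.82 ± 0.22 with a 95% interval of 1.32 to 2.31. Every SOD1G93A library lies above every WT library, with SOD1G93A replicate 3 the highest, yet the adjusted p by limma was 0.101, against 1.70e-13 by DESeq2, and ran from 1.70e-13 to 0.611 over all alternatives. In quiescent WT microglia Fn1 was at 419, 390.1 and 436 rpm, so 2 SOD1G93A LPS libraries lie below and replicate 3 above all resting WT libraries; a quiescent SOD1G93A level is not analysed here, and the effect of LPS within that genotype was not tested. Microglia markers summed to 3505, 3485 and 3541 rpm in WT and 3909, 3804 and 5533 rpm in SOD1G93A LPS libraries, with 0 of 12 called by limma or edgeR (3 at an unadjusted p under 0.05 by limma) and 1, Cx3cr1, by DESeq2, and oligodendrocyte lineage markers to 144, 143 and 145 rpm and 186, 191 and 280.5 rpm, led by Cspg4 at 61.3, 66.9 and 68.5 rpm and 112, 107 and 212 rpm (log2 fold change 1.06, adjusted p = 0.571, not called). The part of either list in the Fn1 values was not tested. Bgn measured 5.29, 5.88 and 3.21 rpm in WT and 2.37, 2.77 and 1.24 rpm in SOD1G93A libraries (-1.14 ± 0.37, adjusted p = 0.571), and Col1a2 was at -0.97 ± 0.42 with 4.19, 1.57 and 3.21 rpm and 1.35, 1.73 and 0.989 rpm; neither passed. Across members the median log2 fold change was -0.18, against 0.01 for all genes.

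**Figure D3:**
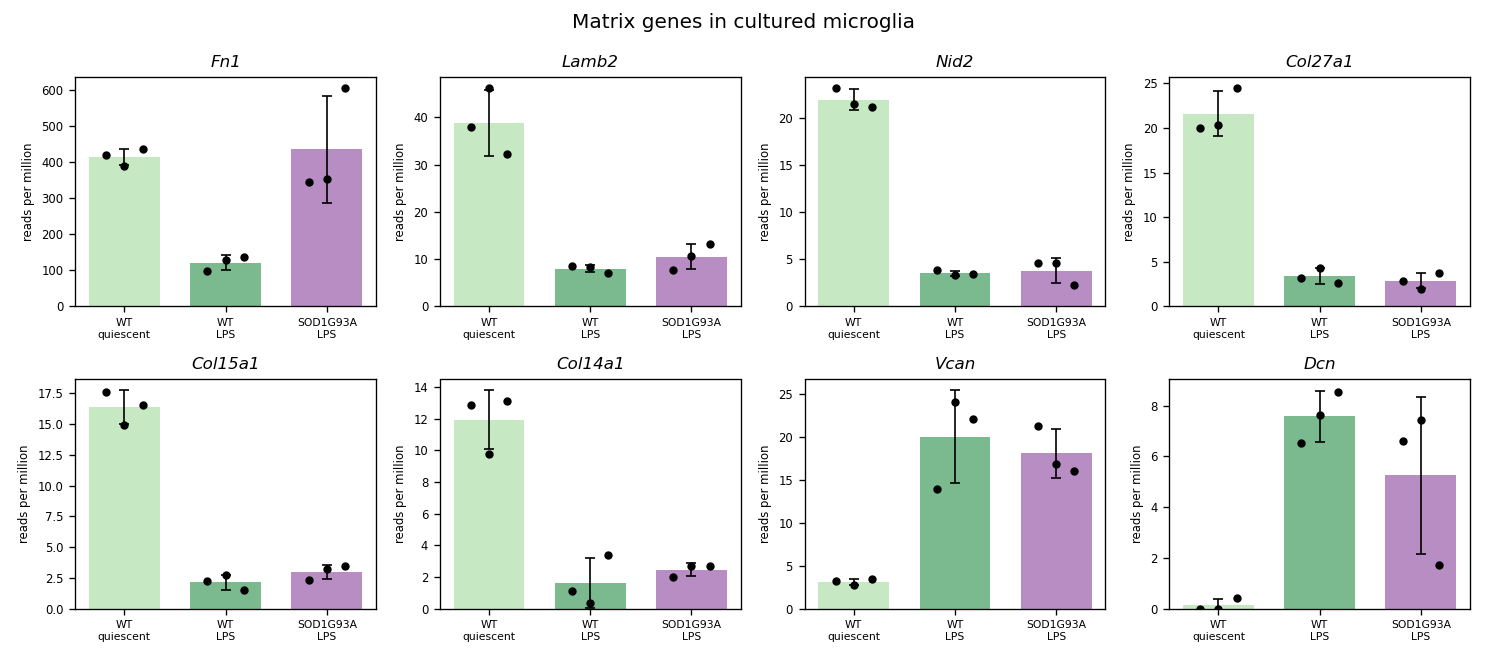
Levels in rpm of 8 matrix genes in the 3 microglia groups; bars are means, error bars SD and points the 3 libraries of each group. Fn1 stands at 415 ± 23.2 rpm in quiescent WT, 121 ± 20.4 rpm in LPS-activated WT and 435 ± 148 rpm in LPS-activated SOD1G93A microglia.

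Between the resting WT cell types, most members belonged to astrocytes, and fibronectin with collagens XIV, XV and XXVII to microglia. By limma on a joint scaling, 29 of 37 members were called, against 47.3% of 12064 genes: 4 higher in microglia, against 22.5%, and 25 lower, against 24.8%. Only members with at least 10 normalized counts in every library leave 19 tested and 15 called, 2 higher and 13 lower, against 3855 of 9702 genes called. The median log2 fold change, microglia over astrocytes, was -3.39 for members and -0.04 for all genes, and scaling by total reads moves the latter to -0.63, with 3 members higher and 31 lower. Cell type cannot be told apart from purification, age and medium here. Col15a1 measured 17.6, 14.9 and 16.6 rpm in microglia and 1.49, 0.550 and 0.864 rpm in astrocytes, a log2 fold change of 4.41 ± 0.32 (adjusted p = 3.54e-07). Col14a1 measured 12.9, 9.80 and 13.1 rpm and 0.496, 1.10 and 0.540 rpm, a log2 fold change of 4.27 ± 0.34 (adjusted p = 7.30e-07). Fn1 measured 419, 390.1 and 436 rpm and 106, 128 and 189.7 rpm, a log2 fold change of 2.18 ± 0.20 (adjusted p = 1.90e-06). Microglia are higher in every library for these. Col27a1 measured 19.99, 20.4 and 24.5 rpm in microglia and 17.4, 5.50 and 7.78 rpm in astrocytes, a log2 fold change of 1.80 ± 0.33 (adjusted p = 5.02e-04). Its call is lost with scaling by total reads (adjusted p = 0.00799), without WT quiescent astrocyte replicate 2 or 3 (0.00128 and 0.00179) and without WT quiescent microglia replicate 1, 2 or 3 (0.00203, 0.00275 and 0.00306).

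By estimate, the 5 members most depleted in microglia were 2 lecticans, 2 collagens and tenascin R, the last close to the laminin Lama5. Bcan measured 6.89, 5.49 and 6.34 rpm in microglia against 759, 753 and 683 rpm in astrocytes, a log2 fold change of -6.26 ± 0.10 (adjusted p = 3.35e-11). Ncan measured 36.2, 28.6 and 35.6 rpm against 2125, 2280.0 and 2527 rpm (-5.52 ± 0.12, adjusted p = 1.14e-10). Tnr measured 0.689, 1.18 and 0.432 rpm against 40.2, 31.1 and 42.0 rpm (-4.82 ± 0.32, adjusted p = 1.80e-07). The groups lie far apart for each. Col16a1, a fibril-associated collagen, measured 0.985, 0.784 and 0 rpm against 28.3, 26.9 and 25.1 rpm (-4.97 ± 0.61, adjusted p = 2.28e-05). Col26a1 measured 0.0985, 0 and 0.144 rpm against 14.4, 15.1 and 14.3 rpm, 2 against 216 reads, lower by a ratio of 142 with a 95% counting interval of 38.9 to 1182. The 20 other members lower in microglia run from -4.75 (Lama5) to -1.31 (Lamb2), and those not called were Lamc1 and Nid2, both under 2-fold but called with scaling by total reads (-1.36 and -1.30), and Bgn, Col1a1, Col1a2, Col23a1, Col6a1 and Lama4. Among the 20, Col18a1 (-1.58 ± 0.31, adjusted p = 7.39e-04) loses its call with TMM scaling (adjusted p = 0.00102), without WT quiescent astrocyte replicate 2 or 3 (0.00120 and 0.00158) and without WT quiescent microglia replicate 2 or 3 (0.00384 and 0.00258). Col6a1 is called by DESeq2 (adjusted p = 5.39e-04), by edgeR (3.36e-04), with scaling by total reads (3.70e-04) and without WT quiescent astrocyte replicate 1 (4.01e-04). Lama4 is called by DESeq2 (4.53e-05), by edgeR (4.65e-05), with pseudocount 5 (9.03e-05), no filter (8.93e-04), scaling by total reads (2.30e-04) or the replicate block (4.84e-04) and without WT quiescent microglia replicate 2 or 3 (6.53e-04 and 9.62e-04), and Col1a1, at the 0.001 limit, only without WT quiescent astrocyte replicate 3 (7.00e-04). Without WT quiescent microglia replicate 1, 2 or 3, Col9a2 (5.19e-05, 1.31e-04 and 1.82e-04) and Lama1 (7.03e-05, 4.47e-05 and 7.27e-05) pass the limit on low counts and are called, as they are with no filter (1.50e-05 and 2.81e-06) and with scaling by total reads (1.39e-05 and 5.89e-06). With no filter the low members Lama3, higher in microglia (3.36, adjusted p = 3.34e-05), and Col2a1 (-2.52, adjusted p = 1.19e-04), Col4a4 (-3.03, adjusted p = 1.78e-04) and Hapln1 (-3.78, adjusted p = 8.05e-06), lower there, are called as well.

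Genes that make, bind, cut or regulate the matrix, none of them members, were followed in 5 lists; in activated WT astrocytes 6.0% of all genes were called higher and 5.54% lower. Of enzymes that modify, fold and cross-link collagen, 4 rose and 1 fell of 25 tested (median log2 fold change 0.36) in activated WT astrocytes. P3h2, a prolyl 3-hydroxylase, went from 2.19 ± 1.70 to 16.5 ± 3.31 rpm (log2 fold change 3.14, adjusted p = 6.84e-04) and Loxl1, a lysyl oxidase, from 16.9 ± 4.07 to 79.2 ± 4.08 rpm (log2 fold change 2.26, adjusted p = 1.43e-06), while Pcolce2, an enhancer of procollagen processing, went from 11.5 ± 3.34 to 4.0 ± 0.353 rpm (log2 fold change -1.42, adjusted p = 7.43e-04). Of matrix receptors, 5 rose and 2 fell of 23 tested (median log2 fold change 0.21). Itga3, an integrin chain, went from 3.46 ± 1.03 to 21.9 ± 1.02 rpm (log2 fold change 2.65, adjusted p = 4.37e-06), Sdc4, a syndecan, from 236 ± 22.0 to 1208 ± 11.3 rpm (log2 fold change 2.38, adjusted p = 2.28e-08), Sdc3 from 675 ± 35.5 to 166 ± 10.4 rpm (log2 fold change -2.0, adjusted p = 4.72e-08) and Ptprz1, a receptor phosphatase that carries chondroitin sulfate, from 2710.1 ± 195 to 939.8 ± 17.0 rpm (log2 fold change -1.5, adjusted p = 1.08e-06). Of genes for hyaluronan and chondroitin sulfate synthesis, 3 rose and 2 fell of 17 tested (median log2 fold change -0.05). Has2, a hyaluronan synthase, went from 1.09 ± 0.0982 to 55.2 ± 1.36 rpm (log2 fold change 5.44, adjusted p = 5.65e-09) and Dse, an epimerase that makes dermatan sulfate, from 4.58 ± 0.629 to 22.9 ± 2.22 rpm (log2 fold change 2.30, adjusted p = 2.70e-06), while Csgalnact1 and Xylt1, which start chondroitin sulfate chains, went from 19.3 ± 1.77 to 7.17 ± 1.53 rpm (log2 fold change -1.40, adjusted p = 1.56e-04) and from 159 ± 9.78 to 74.2 ± 4.76 rpm (log2 fold change -1.08, adjusted p = 3.41e-06). Of ADAMTS proteases that cut lecticans, 3 rose and 0 fell of 6 tested (median log2 fold change 1.42), with Adamts4 going from 19.0 ± 1.61 to 90.1 ± 5.50 rpm (log2 fold change 2.26, adjusted p = 7.49e-08) and Adamts5 from 3.33 ± 1.49 to 12.8 ± 0.843 rpm (log2 fold change 2.01, adjusted p = 5.41e-04). Of TGF-beta ligands, receptors and targets, 4 rose and 0 fell of 17 tested (median log2 fold change 0.52), with the receptor Tgfbr3 going from 2.23 ± 0.680 to 14.2 ± 1.81 rpm (log2 fold change 2.61, adjusted p = 1.31e-05). In activated SOD1G93A astrocytes the counts, in the same order of lists, were 3 higher and 1 lower of 25, 5 higher and 2 lower of 23, 2 higher and 1 lower of 17, 2 higher and 0 lower of 6, and 5 higher and 0 lower of 17 tested, against 6.74% higher and 6.59% lower of all genes.

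The same lists in LPS-activated WT microglia gave these counts, where 10.2% of all genes were called higher and 10.6% lower. Of collagen enzymes, 4 rose and 1 fell of 17 tested (median log2 fold change -0.19): Lox, a lysyl oxidase, went from 9.60 ± 2.79 to 755 ± 153 rpm (log2 fold change 6.5, adjusted p = 1.99e-09), P4ha2, a prolyl 4-hydroxylase, from 1.64 ± 0.767 to 10.6 ± 2.09 rpm (log2 fold change 2.86, adjusted p = 4.11e-05) and P3h3 from 11.4 ± 2.01 to 4.53 ± 0.401 rpm (log2 fold change -1.08, adjusted p = 7.99e-04). Of matrix receptors, 3 rose and 6 fell of 19 tested (median log2 fold change 0.06): the syndecans Sdc4 and Sdc1 went from 45.6 ± 0.852 to 219.9 ± 16.03 rpm (log2 fold change 2.48, adjusted p = 5.62e-09) and from 4.20 ± 0.831 to 13.7 ± 2.40 rpm (log2 fold change 1.87, adjusted p = 3.25e-05), and the integrin chains Itgb3 and Itga6 from 50.2 ± 5.07 to 3.26 ± 0.235 rpm (log2 fold change -3.66, adjusted p = 1.05e-08) and from 630.2 ± 26.5 to 48.8 ± 5.66 rpm (log2 fold change -3.48, adjusted p = 1.35e-09). Of hyaluronan and chondroitin sulfate genes, 3 rose and 3 fell of 14 tested (median log2 fold change -0.13): Has1 went from 0.210 ± 0.216 to 28.6 ± 4.91 rpm (log2 fold change 6.53, adjusted p = 2.61e-07), Xylt2 from 54.3 ± 3.42 to 164 ± 11.8 rpm (log2 fold change 1.80, adjusted p = 3.46e-08), Xylt1 from 129.7 ± 6.64 to 13.7 ± 5.76 rpm (log2 fold change -3.1, adjusted p = 3.08e-06) and Chst3, a sulfotransferase, from 70.4 ± 7.87 to 7.04 ± 0.389 rpm (log2 fold change -3.07, adjusted p = 9.52e-09). Of the ADAMTS proteases, 1 rose and 1 fell of 2 tested (median log2 fold change 0.98): Adamts4 went from 1.66 ± 0.346 to 15.96 ± 3.59 rpm (log2 fold change 3.34, adjusted p = 1.36e-06) and Adamts1 from 55.4 ± 4.05 to 18.3 ± 0.336 rpm (log2 fold change -1.37, adjusted p = 1.32e-06). Of the TGF-beta list, 1 rose and 5 fell of 14 tested (median log2 fold change -0.43): Tgfb2 went from 2.09 ± 1.13 to 22.1 ± 5.68 rpm (log2 fold change 3.64, adjusted p = 2.15e-05), and the receptors Tgfbr1 and Tgfbr2 from 1078 ± 9.75 to 172 ± 35.6 rpm (log2 fold change -2.45, adjusted p = 1.84e-07) and from 655 ± 13.3 to 125 ± 21.7 rpm (log2 fold change -2.19, adjusted p = 1.13e-07). Between genotypes limma called 0 genes of the 5 lists in quiescent astrocytes, activated astrocytes, LPS microglia or the interaction, with 14 of 85, 34 of 89, 11 of 65 and 10 of 88 at an unadjusted p under 0.05, against 8.70%, 20.4%, 8.71% and 8.30% of all genes. DESeq2 called 1 there, Itga7 in quiescent astrocytes, and edgeR 0; at an unadjusted p under 0.05 DESeq2 gave 9, 28, 10 and 7 and edgeR 13, 34, 11 and 9. Itga7, an integrin chain, was named after its values were seen.

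Several members lie side by side in the genome (GRCm38): 11 pairs are within 200 kilobases of each other, and in 6 of these both members passed the limit on low counts. Col4a1 and Col4a2 overlap head to head on chromosome 8 and were under 2-fold in WT astrocytes (0.76 and 0.82), and Col4a6 and Col4a5, head to head and 1308 bases apart on chromosome X, both rose (2.14 and 1.75). Col6a2 and Col6a1, in the same orientation 85161 bases apart on chromosome 10, both rose (2.92 and 2.93), as did Dcn and Lum, 46984 bases apart on the same chromosome (4.14 and 5.42). Hapln1 and Vcan on chromosome 13 did not move together (-1.55, not called, and 1.94). Neighbours were not compared with other pairs of genes.

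Promoter windows, 300 bases around the gene start, came from RefSeq (GRCm38.p6), where 51 of the 70 members were matched, 33 of them among the 48 that passed. They were searched on both strands for the letters TGANTCA (AP-1), GGG and TTTCC with any 2 bases between (NF-kB), GGGCGG (Sp1) and CAGACA (SMAD), where N is any base. Of all 32851 windows, 7.81% held the AP-1 letters, 1.63% NF-kB, 35.7% Sp1 and 21% SMAD. Of the 33 passing members matched, 27 held Sp1, 7 SMAD, 1 AP-1 (Col6a1) and 0 NF-kB. A member counts here if any of its windows holds the letters, and the 51 matched members have 56 windows. The percentages are per window, so the 2 measures are not alike. A match is only a description, and no match says only that these letters are not in the window. For the 6 neighbouring collagen IV and VI genes 1 window each is printed 5′ to 3′ on each gene's own strand, to show how the shared and the separate starts look, with motif letters in capitals; Col6a2 has 2 windows, and the one nearer to its annotated start is shown. They are Col4a1 (chr8:11312777-11313076, minus strand), Col4a2 (chr8:11312555-11312854, plus strand), Col4a6 (chrX:141474027-141474326, minus strand), Col4a5 (chrX:141475169-141475468, plus strand), Col6a2 (chr10:76623581-76623880, minus strand) and Col6a1 (chr10:76725995-76726294, minus strand). The windows of Col4a1 and Col4a2 share 78 bases, read on opposite strands, while those of Col4a6 and Col4a5 lie 842 bases apart.
Col4a1: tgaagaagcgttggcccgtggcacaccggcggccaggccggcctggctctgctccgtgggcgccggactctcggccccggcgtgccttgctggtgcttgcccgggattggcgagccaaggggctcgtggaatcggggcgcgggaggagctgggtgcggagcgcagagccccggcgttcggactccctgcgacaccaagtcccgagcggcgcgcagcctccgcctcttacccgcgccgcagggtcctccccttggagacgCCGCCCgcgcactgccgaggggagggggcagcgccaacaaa
Col4a2: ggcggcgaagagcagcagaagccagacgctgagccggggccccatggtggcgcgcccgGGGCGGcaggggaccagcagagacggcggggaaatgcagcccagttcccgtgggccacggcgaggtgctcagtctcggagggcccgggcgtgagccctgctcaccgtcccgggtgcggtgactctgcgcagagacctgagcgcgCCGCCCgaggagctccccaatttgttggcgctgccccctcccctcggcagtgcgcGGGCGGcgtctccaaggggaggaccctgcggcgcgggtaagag
Col4a6: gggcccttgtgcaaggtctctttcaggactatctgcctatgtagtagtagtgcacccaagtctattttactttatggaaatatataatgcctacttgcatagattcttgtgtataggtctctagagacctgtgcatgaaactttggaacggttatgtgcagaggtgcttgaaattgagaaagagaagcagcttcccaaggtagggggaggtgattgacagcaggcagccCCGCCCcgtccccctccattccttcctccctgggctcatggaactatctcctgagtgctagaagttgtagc
Col4a5: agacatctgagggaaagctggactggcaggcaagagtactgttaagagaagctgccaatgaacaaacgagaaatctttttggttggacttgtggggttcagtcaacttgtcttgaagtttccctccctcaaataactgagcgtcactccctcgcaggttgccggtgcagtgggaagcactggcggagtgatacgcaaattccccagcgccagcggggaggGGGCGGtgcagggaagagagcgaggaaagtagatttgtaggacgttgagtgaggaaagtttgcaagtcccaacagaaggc
Col6a2: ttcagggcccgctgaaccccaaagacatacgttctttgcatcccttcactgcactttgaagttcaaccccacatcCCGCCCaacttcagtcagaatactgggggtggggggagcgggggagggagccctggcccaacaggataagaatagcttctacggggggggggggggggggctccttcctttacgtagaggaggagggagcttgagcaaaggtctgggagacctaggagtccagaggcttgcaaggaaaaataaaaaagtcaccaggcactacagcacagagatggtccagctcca
Col6a1: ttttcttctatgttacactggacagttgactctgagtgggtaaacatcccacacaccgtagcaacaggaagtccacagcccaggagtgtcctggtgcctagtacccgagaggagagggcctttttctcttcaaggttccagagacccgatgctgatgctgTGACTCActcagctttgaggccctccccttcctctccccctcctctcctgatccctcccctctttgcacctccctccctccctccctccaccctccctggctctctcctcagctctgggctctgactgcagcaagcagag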

How the data were processed

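Strand-specific polyA libraries were made by the authors, who used STAR 2.7.3a on mm10, RSEM for counting and DESeq2 for group comparisons; the annotation release is not stated. The deposited signal in each table is a read count divided by the library's DESeq2 size factor within that table. Whole reads were recovered from all values (tolerance 0.01) and matched wherever a library stands in several tables.

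Tests used limma 3.58.1 (intensity trend) in R 4.3.3 on log2(normalized count + 1), for genes with a mean of at least 10 over the libraries fitted, two-sided, with Benjamini-Hochberg adjustment over all genes tested. Fits over libraries of several tables used recovered reads with median-of-ratios factors. The tests were checked on simulated counts with known changes. The recovery of whole reads was not simulated. DESeq2 1.42.0, edgeR 4.0.16, other pseudocounts, filters and scalings, a replicate block and leaving out each library were the alternatives. Intervals and ratios of few reads cover counting error only.

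Members and lists were chosen with earlier results of these data known. Named with values in every library are the called members, up to 20 in the activation comparisons, the 3 of lowest p where fewer than 3 were called, the leading member of each role group and members next to the limits. In the cell type comparison only the called members higher in microglia and those most depleted there have such values. From other lists, up to 2 called genes in each direction are named. Results of 2 genes are not reported here.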

Additional observations from a re-analysis of the deposited data

How the results depend on the processing

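The counts of called members were recomputed with pseudocounts of 0.5 and 5, no filter on low counts, at least 10 normalized counts in every library, TMM scaling, DESeq2, edgeR, an adjusted p under 0.05, the replicate number as a block and, chosen after seeing the data, scaling by total reads. Over these 10 the count ranged from 17 to 24 for activated WT astrocytes (20 reported), 5 to 9 for LPS in WT microglia (8), 1 to 3 between activated genotypes (2), 0 to 1 between LPS microglia (0), 18 to 26 for activated SOD1G93A astrocytes (21) and 15 to 36 between cell types (29), and was 0 throughout for quiescent genotypes and for the difference of responses. At least 10 counts in every library, with fewer genes tested, gave 5 in WT microglia, 1 between activated genotypes and 15 between cell types. No filter gave 1 between activated genotypes, and DESeq2 gave 1 between LPS microglia. The cause of these shifts was not tested beyond the number of genes. With the replicate block 3 were called between activated genotypes and 30 between cell types; the labels do not state a pairing.

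Leaving out each library in turn, counts ran from 19 to 21, 7 to 8, 0 to 1, 0 to 0, 20 to 22 and 27 to 30 in the same order, and stayed at 0 for the other comparisons. Of 1574 values of the 91 named results, 1537 kept direction and call, 37 changed call and 0 turned direction.

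TMM factors over all libraries moved the summed level in rpm to 4632 from 5845 in quiescent and to 7138 from 8791 in activated WT astrocytes, to 4504 from 5718 and to 7053 from 8634 in SOD1G93A astrocytes, to 999 from 819.6 in quiescent and to 676 from 478 in LPS-activated WT microglia, and to 1066 from 755 in SOD1G93A microglia; the cause was not tested. Squared differences between replicate pairs were 1.48 to 20.3 times those of counting error (chi-square per degree of freedom).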
